A study of Homo sapiens with 38 samples.

Results

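The embryonic partner proteins DPPA2 and DPPA4 were introduced together into H1299 cells with a different peptide tag on each, and the chromatin bound by either tag was compared domain by domain. The data described are the 4 CUT&RUN libraries in which the tag itself was targeted: 2 replicate libraries with the Flag superclonal antibody, which reads Flag-DPPA2, and 2 with the V5 antibody, which reads V5-DPPA4. They are 4 of the 38 libraries of the series, 30 of which have region files. In CUT&RUN an antibody tethers a nuclease to the protein it recognises, and the DNA released around that protein is sequenced. NCI-H1299 is a lung cancer line (non-small cell) without DPPA2 or DPPA4 of its own. The cells were bulk-sorted stable lines carrying PiggyBac doxycycline-inducible transgenes for N-terminally tagged DPPA2 and DPPA4, and every H1299 library came from cells given 2 µg/mL doxycycline for 7 days. No library of uninduced cells was analysed here, so the control for each domain is IgG in the same induced cells. The Flag superclonal antibody was raised in rabbit and set against rabbit IgG, whereas the V5 antibody was raised in mouse and set against mouse IgG. Tag, protein, antibody host and IgG control therefore cannot be told apart within these 4 libraries. The labels do not say whether the replicates are separate cultures, so the spread between them may be technical.

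Domains are the broad enriched regions that the authors called with EPIC2, each with a read count (ChIPCount) and the IgG read count over the same bases. A domain was kept at an FDR below 0.05 and a log2 fold over IgG above 1, and a site of a tag is a domain found in both of its replicates with an overlap of at least 25% of the shorter region. A site was called shared where it met a site of the other tag by the same overlap, and Flag-only or V5-only where it did not. Tag-only sites were further split. Partly matched sites are touched by a domain of the other tag in at least 1 replicate, or meet its site by less than the overlap required. Strict sites are touched by no domain of the other tag in either replicate. A promoter is the 1500 bp on either side of the start of the canonical transcript of a protein-coding gene (GENCODE release 44, 19970 promoters, hg38).

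DPPA2 and DPPA4 lie next to each other on human chromosome 3 and are expressed in pluripotent cells and the germ line. Both carry a SAP domain, a fold that contacts DNA, and a conserved C-terminal domain, and they are known to form heterodimers. In mouse embryonic stem cells the pair is required to keep the CpG-rich promoters of developmental genes free of DNA methylation and marked by COMPASS and Polycomb complexes. Where each partner sits without the other is the question that these 4 libraries allow to be put.

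Stretches of 150 bases from sites of each class are printed to show how different their DNA was. They were read from the plus strand of hg38, hold no annotated exon, and have each CG dinucleotide in capitals. The SCAF8 promoter (chr6:154733226-154733375) and the FZD1 promoter (chr7:91264283-91264432) were the leading shared promoter sites by read density, and a site inside CCDC200 (chr17:43246476-43246625) led the shared sites outside promoters.
SCAF8, shared: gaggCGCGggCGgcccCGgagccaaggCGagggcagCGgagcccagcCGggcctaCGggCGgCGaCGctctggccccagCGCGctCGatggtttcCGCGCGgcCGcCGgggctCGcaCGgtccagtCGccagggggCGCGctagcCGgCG
FZD1, shared: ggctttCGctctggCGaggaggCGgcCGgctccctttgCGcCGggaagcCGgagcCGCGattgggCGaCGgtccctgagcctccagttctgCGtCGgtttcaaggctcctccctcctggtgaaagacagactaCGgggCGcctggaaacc
CCDC200, shared: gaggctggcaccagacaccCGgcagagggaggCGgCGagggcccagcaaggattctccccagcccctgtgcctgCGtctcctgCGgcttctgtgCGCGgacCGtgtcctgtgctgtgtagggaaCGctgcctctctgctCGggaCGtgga
From the strict Flag-only class, the stretches come from the leading promoter, IL17RC (chr3:9916924-9917073), and from an intergenic site on chromosome 16 with SHCBP1 as its nearest gene (chr16:46382226-46382375).
IL17RC, Flag: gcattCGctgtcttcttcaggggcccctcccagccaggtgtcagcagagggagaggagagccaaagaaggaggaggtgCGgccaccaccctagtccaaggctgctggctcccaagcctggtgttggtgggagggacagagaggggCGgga
SHCBP1, Flag: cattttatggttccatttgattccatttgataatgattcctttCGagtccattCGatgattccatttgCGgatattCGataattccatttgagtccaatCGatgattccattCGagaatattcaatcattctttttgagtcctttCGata
From the strict V5-only class, they come from the site that touches the ICAM1 promoter (chr19:10269576-10269725) and from sites outside promoters near LKAAEAR1 (chr20:64088726-64088875) and inside ADGRA1 (chr10:133111826-133111975).
ICAM1, V5: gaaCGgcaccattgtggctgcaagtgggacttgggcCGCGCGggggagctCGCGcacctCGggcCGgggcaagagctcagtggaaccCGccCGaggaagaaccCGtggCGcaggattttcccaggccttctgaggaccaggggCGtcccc
LKAAEAR1, V5: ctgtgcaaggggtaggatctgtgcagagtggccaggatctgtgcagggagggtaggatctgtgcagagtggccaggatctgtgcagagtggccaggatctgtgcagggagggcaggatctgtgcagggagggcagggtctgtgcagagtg
ADGRA1, V5: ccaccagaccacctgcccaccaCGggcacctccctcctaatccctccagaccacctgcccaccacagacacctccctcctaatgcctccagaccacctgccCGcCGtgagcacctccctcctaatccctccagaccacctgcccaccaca
The stretch at SCAF8 held 26 CG dinucleotides that at FZD1 15 and that at CCDC200 11, against 3 at IL17RC, 7 near SHCBP1, 13 at ICAM1, 0 near LKAAEAR1 and 3 in ADGRA1. The stretches near LKAAEAR1 and in ADGRA1 were tandem repeats. Shifted against itself by 60 bases, the LKAAEAR1 stretch matched at 85.6% of positions, and the ADGRA1 stretch matched at 86.1% at a shift of 42 bases. The best value for the SHCBP1 stretch was 61.5%, and that for SCAF8 44.9%. The SHCBP1 stretch also repeats short runs of letters, with changes between them.

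The 4 libraries differed in how much of the genome they called. Flag-DPPA2 gave 26200 domains in replicate 1 and 13811 in replicate 2, and V5-DPPA4 gave 42537 and 22998. Reads inside these domains numbered 1236663 and 184439 for Flag, and 3025428 and 801969 for V5. The first replicate of each tag thus held 6.70 times (Flag) and 3.77 times (V5) the domain reads of the second. Read totals did not differ to that extent: the offset between the deposited log2 fold and the raw read ratio over the shared IgG library gives a total in Flag replicate 1 of 1.21 times that of replicate 2, and in V5 replicate 1 of 0.693 times that of replicate 2. Both replicates of a tag were scored against the same IgG library, since domains with identical ends carried identical IgG counts in all 144 such Flag pairs and all 308 V5 pairs. Intervals given below cover counting error only.

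Most Flag-DPPA2 sites were also V5-DPPA4 sites, by a share that moved with the calling. Of 8478 Flag sites, 7674 were shared, which is 90.5% (95% exact binomial interval 89.9 to 91.1). Of 15227 V5 sites, 7288 were shared, or 47.9% (47.1 to 48.7). The remainder comprised 804 Flag-only and 7939 V5-only sites. Most of these were touched by the other tag in a single replicate. Among the Flag-only sites, 717 were touched by a V5 domain in replicate 1 only, 14 in replicate 2 only and 7 in both, which left 66 strict sites, 0.778% of the Flag set (0.603 to 0.989). Among the V5-only sites, 5855 were touched by a Flag domain in replicate 1 only, 148 in replicate 2 only and 132 in both, which left 1804 strict sites, 11.8% of the V5 set (11.3 to 12.4). Of these, 21 of the 66 Flag and 100 of the 1804 V5 strict sites were touched by a deposited domain of the other tag that had missed the fold or FDR limit. With a log2 fold above 2 the shared part was 69.2% of Flag and 35.3% of V5 sites, and with MACS2 peaks 67.6% and 32.3%. The strict counts depended on the lists: with lists of equal length they were 218 and 931, with a log2 fold above 2 they were 102 and 1726, and with MACS2 peaks 7 and 31. From replicate 1 alone 3087 Flag and 22261 V5 domains were strict, and from replicate 2 alone 2803 and 7102. For these counts too, both replicates of the other tag were searched.

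**Figure D1:**
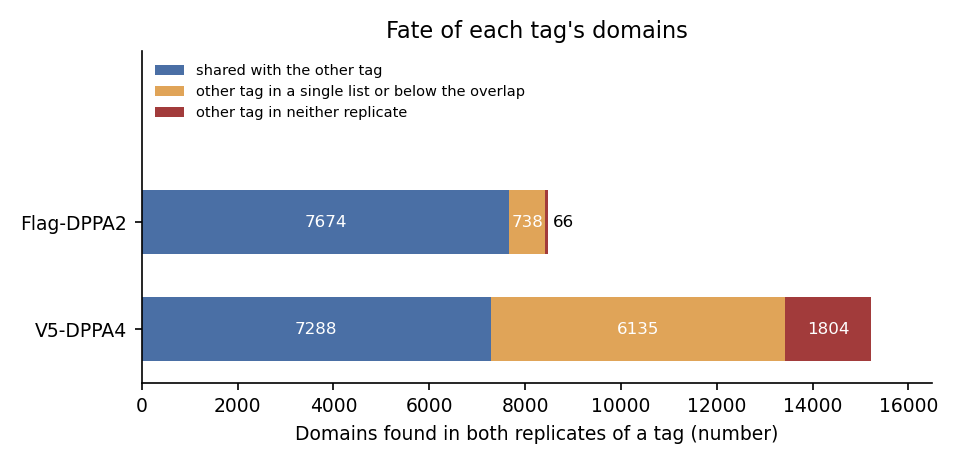
Number of domains found in both replicates of Flag-DPPA2 and V5-DPPA4 (horizontal axis), split by what the other tag showed there. Shared sites make up 7674 of the Flag bar and 7288 of the V5 bar, and sites with the other tag in neither replicate number 66 and 1804.

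The lists differed in length, Flag replicate 2 being the shortest, and a site needed both replicates. With each library reduced to 13811 domains, keeping those of lowest deposited p-value, 81.7% of 7332 Flag sites and 60.4% of 9488 V5 sites were shared, and the tag-only sites numbered 1344 for Flag and 3760 for V5. V5-only sites were still the more numerous, by a smaller margin. In replicate 1 alone 87.1% of Flag and 46.2% of V5 domains were shared, and in replicate 2 alone 67.8% and 34.3%.

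Whole libraries of the tags were compared on 4 measures, and with 2 libraries a tag none could pass a test. The number of domains on the log2 scale averaged 14.22 ± 0.65 for Flag and 14.93 ± 0.63 for V5 (SD, n = 2 each, exact permutation p = 0.667). Flag minus V5 in this number was -0.70 in replicate 1 and -0.74 in replicate 2. Domains touching a promoter averaged 50.9% ± 3.73 for Flag and 41.5% ± 11.0 for V5 (exact permutation p = 0.667). Median domain length was 550 ± 212 bp against 700 ± 0 bp, and median ChIPCount per kb was 29.8 ± 6.80 against 31 ± 1.41 (exact permutation p = 1 for each). Adjusted over the 4 measures each two-sided p was 1, and with 2 libraries a tag no p below 0.333 can be reached.

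Whether a V5 site was also a Flag site followed its own V5 signal. When V5 sites were ranked by V5 reads per kb in replicate 1 and cut into 4 bins of equal size, 11.8% of the lowest bin were shared, against 36.9%, 62.7% and 80.1% of the following bins. Ranked by replicate 2, the shares ran 14.7%, 40.2%, 60.04% and 76.5%. The same order held within promoters, where 14.3% of the lowest and 80.9% of the highest bin by replicate 1 were shared, and outside them, where 10.6% and 76.3% were. Strict V5-only sites were concentrated at the bottom of the scale, with 1564 of the 1804 in the lowest bin and 7 in the highest. Flag sites showed a shallower gradient, from 80.8% shared in the lowest bin of replicate 1 to 95.8% in the highest, and 48 of the 66 strict Flag sites fell in the lowest bin. Read density enters the calling of domains, so these gradients are given as descriptions.

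**Figure D2:**
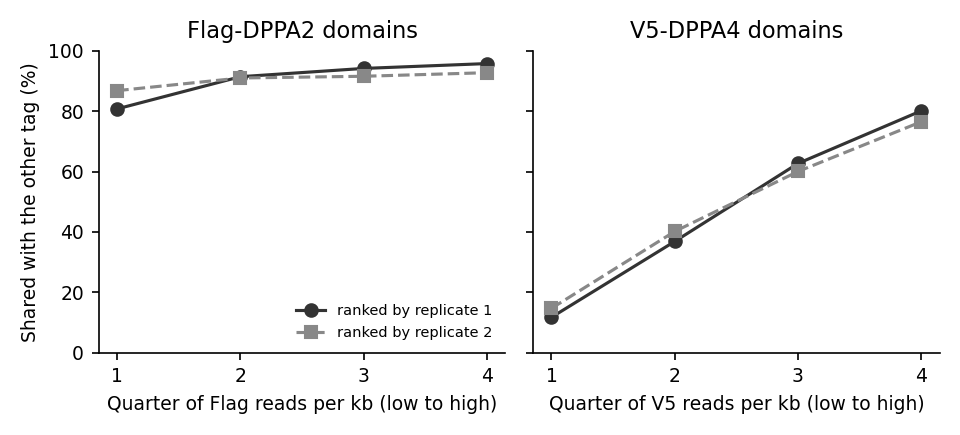
Percent of sites shared with the other tag (vertical axis) by 4 equal bins of the tag's own reads per kb (horizontal axis, low to high), ranked by replicate 1 (solid) or replicate 2 (dashed). For V5 the share climbs from 11.8% to 80.1% by replicate 1, and for Flag from 80.8% to 95.8%.

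Read density and length separated the classes in the same direction for both proteins. At shared sites Flag reads per kb had a median of 53.5 in replicate 1 and 26.7 in replicate 2, against 38.6 and 24.0 at partly matched and 26.7 and 23.3 at strict Flag-only sites. For V5 the medians were 90.0 and 39.2 at shared, 53.6 and 30.0 at partly matched, and 27.5 and 23.3 at strict V5-only sites. The second replicate thus spanned a narrower range than the first. Strict sites rested on few reads: a median of 9.5 and 7 reads per site in the Flag replicates, with at most 26 and 44, and of 17 and 13 in the V5 replicates, with at most 199 and 81. The median length of shared sites was 1400 bp on the Flag list and 2100 bp on the V5 list, of strict Flag-only sites 500 bp and of strict V5-only sites 900 bp. Length and density enter the definition of the classes, since a long domain meets the other list more easily, and are given as descriptions. IgG reads stayed low everywhere but differed by host. Over shared sites rabbit IgG gave 4.15 reads per kb under the Flag replicate 1 domains and mouse IgG 1.79 under those of V5 replicate 1, against 3.35 and 1.06 over the strict sites.

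With the EPIC2 domains and limits used, shared sites touched a promoter more often than sites of a single tag, and strict sites did so least. A promoter was touched by 72.8% of shared Flag sites (interval 71.7 to 73.7) and by 74.8% of shared V5 sites (73.8 to 75.8). Among partly matched sites the share was 46.6% for Flag (43.0 to 50.3) and 58.3% for V5 (57.0 to 59.5). Of strict sites, 7 of 66 Flag sites, or 10.6% (4.37 to 20.6), and 450 of 1804 V5 sites, or 24.9% (22.96 to 27.0), touched a promoter. Strict Flag-only sites were most often intergenic (53.0%, with 36.4% in a gene body), and strict V5-only sites most often lay in a gene body (44.5%, with 30.5% intergenic). The centre of a shared Flag site stood a median of 355 bp from the nearest protein-coding start, against 43743 bp for strict Flag-only and 9276 bp for strict V5-only sites. The share of tag-only sites at promoters, 43.7% for Flag and 50.7% for V5, moved widely with the calling. It was 63.6% and 58.8% with a log2 fold above 2, 70.8% and 79.0% with MACS2 peaks, 62.6% and 67.8% with lists of equal length, and 8.27% to 18.0% and 15.4% to 37.6% from single replicates. Shared sites on the Flag list stood at 76.9% with MACS2 peaks, below the V5-only share and above the Flag-only one. Strict V5-only sites also lay closer to shared ones: 489, or 27.1%, were within 5 kb of a shared site, against 10, or 15.2%, of the strict Flag-only sites and 14.5% of the partly matched V5 sites.

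CpG content followed the same split. In the central 500 bp, the observed over expected CpG ratio had a median of 0.84 at shared Flag sites in promoters, 0.49 in gene bodies and 0.61 between genes. At strict V5-only sites the medians were 0.67, 0.30 and 0.33, and at strict Flag-only sites 0.34 in the 7 promoters, 0.33 in gene bodies and 0.43 between genes. Windows of 500 bp taken every 100 kb across the genome had a median of 0.19, and the 500 bp around all promoter starts 0.78. Partly matched promoters resembled shared ones, at 0.80 for Flag and 0.81 for V5. The stretch printed for SCAF8 is of the CpG-dense kind, and that for IL17RC of the CpG-poor kind found at strict Flag-only promoters.

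**Figure D3:**
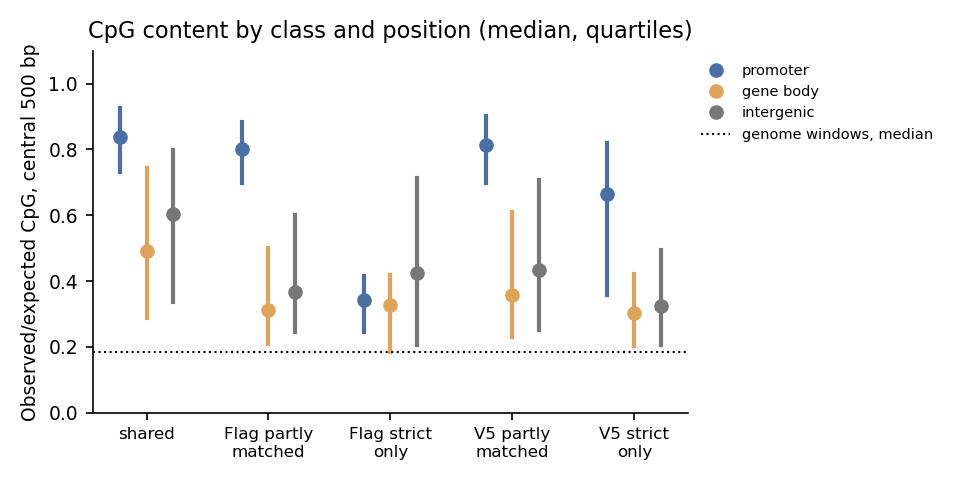
Observed over expected CpG ratio in the central 500 bp (vertical axis) by class, with points at the median, bars from the lower to the upper quartile and colours for position; the shared class is drawn from the Flag list. Promoter sites stand near 0.8 in every class but the strict ones, which fall to 0.67 for V5 and 0.34 for the 7 Flag promoters, and the dotted line marks genome windows at 0.19.

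Short motifs were counted in the same 500 bp on both strands as a description of the letters present. The GC box GGGCGG was found in 83.7% of shared Flag sites in promoters, in 61.1% of strict V5-only promoters and in 1 of the 7 strict Flag-only promoters (14.3%), against 69.5% of all promoters. TGANTCA, the AP-1 letters, was present in 22.8% of shared Flag sites in gene bodies and 20.8% between genes, and in 22.9% and 23.5% of the strict V5-only sites there, against 14.6% of genome windows. In promoters it was found in 4.69% of shared and 6.67% of strict V5-only sites, beside 7.47% of all promoters. The E-box CACGTG (10.9% of shared Flag sites, 9.98% of strict V5-only sites), CCAAT (36.4% and 38.2%), TGACGTCA (1.73% and 0.721%) and TATAAA (6.67% and 12.0%) were present in 4.76%, 54.3%, 0.179% and 43.4% of genome windows.

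Part of the strict sites stood on repeated DNA. A site was counted as repeated when each of 3 spaced 31-mers at its centre occurred more than once in the genome, which held for 108 of the 7674 shared Flag sites (1.41%), 10 of the 66 strict Flag-only sites (15.2%) and 41 of the 1804 strict V5-only sites (2.27%). Tandem repeats, scored as at least 80% self-match of the central 150 bases at an offset of 5 to 60 bases, were present in 0.287% of shared Flag, 6.06% of strict Flag-only (4 sites) and 0.665% of strict V5-only sites (12 sites). Repeats that have diverged escape both measures: the SHCBP1 stretch, with 61.5% self-match, was counted in neither. The counts are therefore lower limits. The part of repeated DNA in the strict calls was not tested beyond these counts.

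Promoters with the highest signal in all 4 libraries were those of SCAF8, FZD1, TAP1 with PSMB9, GUCD1 with SNRPD3, NCLN, ELMO2, WDR46 with PFDN6, NHEJ1, NFE2L1 and THAP8 with WDR62. The site at SCAF8, which encodes a protein that binds the RNA polymerase II tail, spanned chr6:154731401-154735200 and carried 186 and 68.2 Flag reads per kb and 302 and 80.3 V5 reads per kb in replicates 1 and 2. At FZD1, a Wnt receptor gene (chr7:91262501-91267100), the values were 164 and 67.4 for Flag and 251 and 101 for V5. The divergent promoter of TAP1 and PSMB9, which act in MHC class I peptide supply (chr6:32852301-32855200), had 158 and 66.2 Flag and 271 and 82.3 V5 reads per kb. NFE2L1, a transcription factor gene of the proteasome stress response, had 253 and 56.9 for Flag and 311 and 87.4 for V5. In each of these sites V5 exceeded Flag within the same replicate number, and among the 10 only WDR46/PFDN6 went the other way, at 252 against 225 in replicate 1 and 96.2 against 86.7 in replicate 2. All 10 were also domains in at least 7 of the 8 other H1299 antibody libraries.

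Outside promoters the leading shared sites were 3 short stretches inside CCDC200 on chromosome 17, a site 171627 bp downstream of the PLS3 start on the X chromosome and a site 70619 bp from RNF187 on chromosome 1. The first CCDC200 site (chr17:43246301-43246800) had 410 and 150 Flag and 895 and 164 V5 reads per kb, more than any promoter named above. These 5 sites were 500 to 800 bp long, shorter than the median shared site. Repeated DNA was counted for the shared class as a whole and was not read out for these 5 sites. No blacklist of problem regions was applied, so their high density may not reflect binding alone.

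Strict Flag-only promoters were few and faint. The 7 were IL17RC, DCAF16 with NCAPG, CSMD3, ACOX3 with TRMT44, CLIP2, GNB2 and DLK1. IL17RC, an interleukin-17 receptor subunit gene, headed the list (chr3:9916801-9917300) with 14 and 9 reads in the Flag replicates, 28.0 and 22.5 per kb, and 0 IgG reads. At DLK1, an imprinted gene of a Notch-related ligand, the counts were 9 and 6 reads. No count at these promoters exceeded 17 reads in a library, and the second replicate was the higher in density at DCAF16, ACOX3 and DLK1. Antibodies to other epitopes found some of them. IL17RC and CLIP2 were domains in 4 of the 8 other H1299 libraries, DCAF16 in 2, CSMD3, ACOX3 and GNB2 in 1 and DLK1 in 0. Away from promoters the leading strict Flag-only sites were 100 to 200 bp long, on chromosome 15 (nearest genes ARHGAP11A-SCG5 and OR4F4), in LPA on chromosome 6, and near ZNF716 on chromosome 7 and SHCBP1 on chromosome 16, with 6 to 22 reads a library. The central letters near ZNF716 occurred at least 1239 times in the genome.

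Strict V5-only promoters were more numerous, at 450 sites, and those named lead them in read density. The first 10 were TCAF2, ICAM1, ZNF32, BAZ2A, ZNF730, RPL6, HIGD2B with BBS4, P3H3, ALDH18A1 and CLINT1. At ICAM1, an adhesion molecule gene, the site began upstream of the start (chr19:10269301-10270000) and held 39 and 19 V5 reads, 55.7 and 63.3 per kb, with 0 IgG reads. At RPL6, a cytosolic ribosomal protein gene (chr12:112409001-112410000), V5 reads per kb were 54.0 and 35.0. The site shared by HIGD2B and BBS4, a ciliary BBSome gene, held 89 and 42 V5 reads and was a domain in 7 of the 8 other libraries. CLINT1, which encodes a clathrin-binding adaptor, had 58.5 and 34.7 V5 reads per kb. Over these 10 promoters V5 replicate 1 ran from 46.4 to 90.0 reads per kb, the highest, at TCAF2, on 18 reads. The median over all strict V5-only sites was 27.5, beside 53.6 at partly matched and 90.0 at shared V5 sites. Outside promoters the leading sites were a 400 bp stretch far upstream of NUPR2 on chromosome 7, with 77 and 81 reads and 7 IgG reads in each replicate, pieces of the short arm of chromosome 21 with TPTE as the nearest gene, a site in OPRL1 near LKAAEAR1 and a site in ADGRA1. The NUPR2 site and both chromosome 21 sites were repeated elsewhere in the genome, and the last 2 are the tandem repeats printed above.

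**Figure D4:**
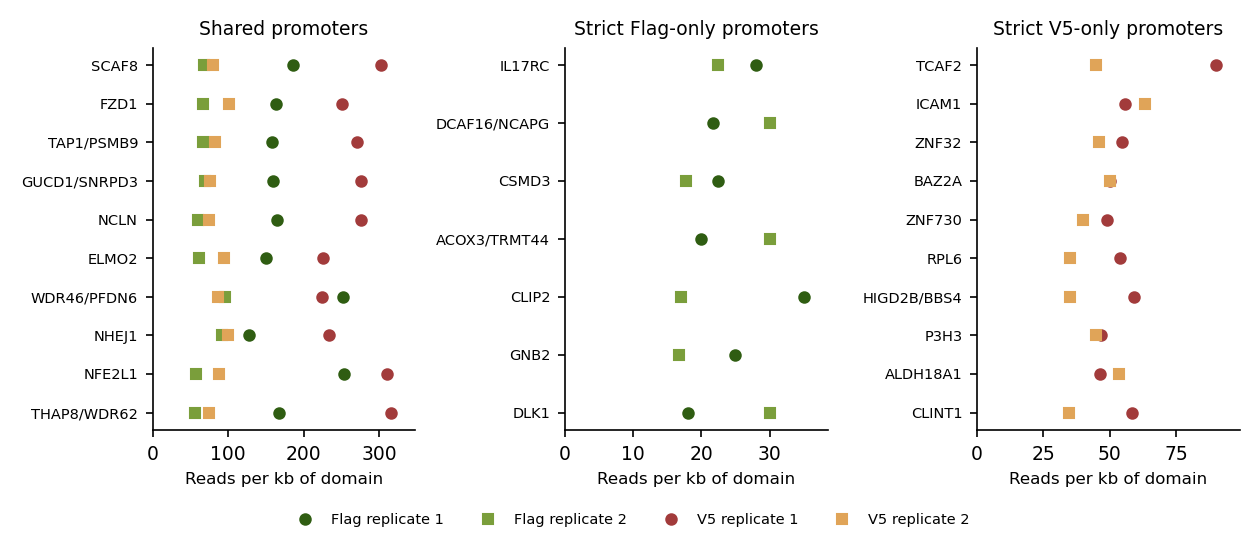
Reads per kb (horizontal axes, with different ranges) at the leading promoters of each class, circles for replicate 1 and squares for replicate 2, green for Flag and red or orange for V5; in the strict panels the other tag has no domain and no point. Shared promoters run from 55.7 to 316 reads per kb, the 7 strict Flag-only promoters from 16.7 to 35.0 and the 10 strict V5-only promoters from 34.7 to 90.0.

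The balance between the tags was read at shared sites, all of which had a domain in each of the 4 libraries. Sites with very unequal signal may fall in the tag-only classes, so the spread given here is limited by that choice. Over 7256 merged shared sites the log2 ratio of Flag to V5 reads per kb had a median of -0.75 in replicate 1 and -0.56 in replicate 2. This offset moves with library enrichment and was removed by centring. The centred ratio had an SD of 0.38 in replicate 1 and 0.52 in replicate 2 and correlated across sites between the replicate numbers with r = 0.15 (Spearman rho 0.15), a description over sites that share libraries. It was -0.03 and -0.02 in promoters (median, replicates 1 and 2), 0.10 and 0.10 in gene bodies, and 0.09 and 0.06 between genes. Only 13 sites leaned to Flag by more than 1 in both replicates, and 0 leaned to V5 by that much. By the smaller of the 2 replicate values, the promoters leaning most to Flag were FEM1A (1.05 and 1.14), NBPF3 (1.37 and 1.00), CLCC1 (0.97 and 1.00), NTPCR (1.21 and 0.95) and CEMIP (0.94 and 1.56). Those leaning most to V5 were DTX2 (-0.91 and -1.02), ACADM (-0.88 and -1.01), TMEM147 (-0.81 and -0.80), NTSR1 (-0.77 and -0.88) and PGD (-0.70 and -0.76). Several Flag values among them stood on 6 to 14 reads in replicate 2, as at CEMIP with 6 and NTPCR with 14. Reads were divided by the length of each library's own domains, so a shorter Flag domain raises the ratio. At the shared sites these lengths had medians of 1500 and 600 bp for Flag and 2000 and 1400 bp for V5 (replicates 1 and 2). FEM1A leaned to Flag in replicate 1 with 93 Flag reads and 252 V5 reads. The part of domain length in the lean was not tested. Between libraries, log2 density correlated most closely between Flag replicate 1 and V5 replicate 1 (r = 0.84 across sites), closer than between the replicates of Flag (0.38) or of V5 (0.65).

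The other 8 H1299 libraries took no part in forming the classes, and for each protein they carry antibodies of the other host than its tag: the DPPA2 and Flag monoclonal antibodies are from mouse and read DPPA2, and the DPPA4n and DPPA4 antibodies are from rabbit and read DPPA4. Shared sites were found by nearly all of them. Their recovery was 75.05% to 99.8% in 7 of the 8 libraries and 13.1% in Flag monoclonal replicate 2, which had only 4904 domains. Of shared Flag sites 1 of 7674 was missed by all 8. Strict sites were recovered less: in DPPA2 replicates 1 and 2, 27.3% and 12.1% of strict Flag-only and 59.3% and 15.4% of strict V5-only sites carried a domain, and in DPPA4n 40.9% and 19.7% against 72.3% and 6.71%. In all, 18 of the 66 strict Flag-only sites (27.3%) and 251 of the 1804 strict V5-only sites (13.9%) were seen by none of the 8, and the median strict site was seen by 2. Most strict sites of either tag therefore carried a domain in at least 1 other library. Both replicates of an antibody rarely held them. For DPPA2 both did so at 5 of the 66 strict Flag-only and 217 of the 1804 strict V5-only sites. The counts were 4 and 108 for DPPA4n, and 4 and 152 for DPPA4. How often other regions of like length meet these lists was not tested.

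The other antibodies allow the question whether libraries against DPPA2 recovered relatively more Flag-only sites than libraries against DPPA4 did. The difference, percent of the 804 Flag-only minus percent of the 7939 V5-only sites recovered, was -0.306 and -10.3 percentage points in DPPA2 replicates 1 and 2 and 2.72 and 0.205 in the Flag monoclonal replicates. In DPPA4n it was -0.623 and 15.6, and in DPPA4 10.2 and 9.58. Its mean was -1.93 ± 5.75 in DPPA2-directed and 8.69 ± 6.77 in DPPA4-directed libraries (SD, n = 4 libraries each, which are 2 replicates of 2 antibodies). Replicates of an antibody may not be independent, and the test below took each library as a unit. The p-values of that test may therefore be too small. The DPPA2-directed mean was the lower, by -10.6 points, so Flag-only sites were not recovered relatively more often by antibodies to DPPA2, and the two-sided exact permutation test over the 70 arrangements did not pass (p = 0.114, smallest possible 0.0286). Antibody target and antibody host cannot be told apart in this difference, since the Flag superclonal antibody is from rabbit as are the DPPA4-directed ones. Nor can the IgG library, because IgG counts were identical in all domains with the same ends between Flag superclonal and the DPPA4-directed libraries, and between V5 and the DPPA2-directed ones. The difference was larger with domains above a log2 fold of 2, at -25.5 points (exact permutation p = 0.0286). It was also larger when DPPA4n replicate 1 was left out, at -13.7 points (exact permutation p = 0.0286). It was near 0 where the classes came from replicate 1 alone (-0.274) or replicate 2 alone (-0.0550).

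**Figure D5:**
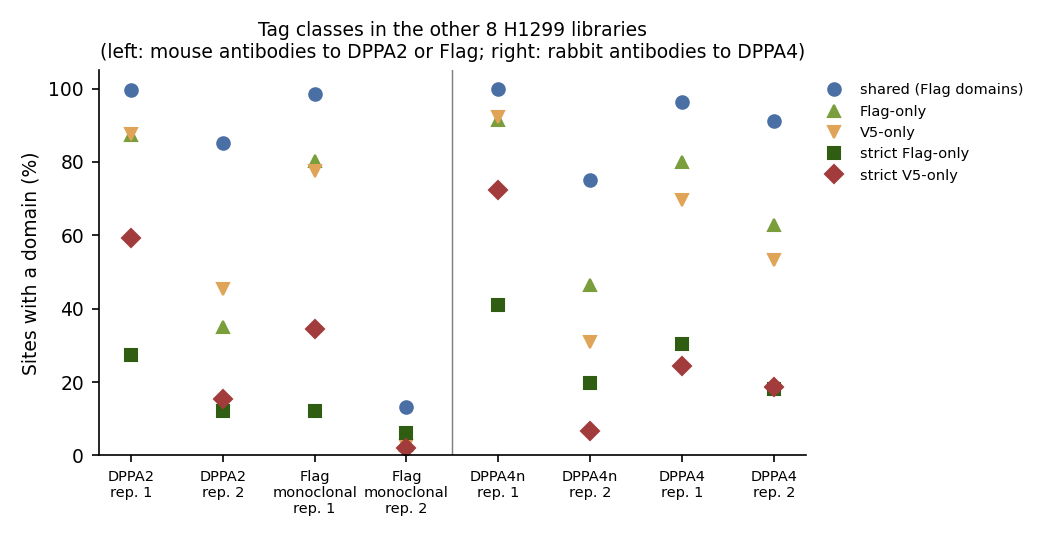
Percent of sites of each class that carry a domain (vertical axis) in each of the 8 H1299 libraries with other antibodies (horizontal axis), mouse antibodies read as DPPA2 on the left and rabbit antibodies read as DPPA4 on the right. Shared sites lie at the top of every library, and Flag-only exceeds V5-only sites by 9.58 to 15.6 points in 3 of the 4 rabbit libraries.

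Endogenous binding was compared in NCI-H661, a lung cancer line that expresses DPPA2 and DPPA4, with 1 library an antibody. Shared Flag sites were occupied by endogenous DPPA2 in 81.7% and by endogenous DPPA4 in 82.3% (N-terminal antibody) and 83.6% (a further DPPA4 antibody). Strict V5-only sites reached 39.2%, 29.4% and 34.8%, and strict Flag-only sites 25.8%, 13.6% and 18.2%, in the same order. Regulators mapped in H661 lines with doxycycline-inducible hairpins also differed between the classes. The shD4 line carries a hairpin against DPPA4, and the shDKD line carries hairpins against DPPA2 and DPPA4. The libraries used are those of the control arm, kept for 7 days without doxycycline. RING1B, the PRC1 ubiquitin ligase, had a domain at 83.6% of shared Flag, 25.6% of strict V5-only and 18.2% of strict Flag-only sites in the shD4 line. EP300, a histone acetyltransferase, had 73.4%, 14.2% and 13.6%, MTF2, a PRC2 accessory subunit, 72.8%, 23.6% and 9.09%, and PCGF1, a variant PRC1 subunit, 40.6%, 4.43% and 0%. The 0 of 66 allows a share of up to 4.55% when 3 counts are taken as the limit, and up to 5.44% by the exact interval. In the shDKD line, shared sites were at 79.3% for RING1B, 75.2% for EP300, 71.3% for MTF2 and 38.2% for PCGF1. The classes differ in position. For RING1B and MTF2 the gap between shared and strict V5-only sites was smaller within promoters. That between shared and strict Flag-only sites was wider within promoters, on 7 sites. There RING1B in the shD4 line was at 93.0% of shared Flag, 52.0% of strict V5-only and 14.3% of the 7 strict Flag-only sites. MTF2 was at 83.4%, 53.6% and 14.3%. In gene bodies RING1B was at 51.9% of shared Flag and 12.0% of strict V5-only sites. The part of position and site length in these differences was not tested.

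Of the 19970 promoters, both tags occupied 6223 (31.2%), V5 but not Flag 4280 (21.4%), and Flag but not V5 382 (1.91%). V5 with no Flag domain in either replicate was present at 323 (1.62%), and Flag with no V5 domain in either at 4 (0.02%). The last count is below the 7 strict Flag-only sites that touch a promoter because here a V5 domain anywhere in the promoter window counted. Gene lists were read against these shares and were not tested. Above the 31.2% background for both tags stood the COMPASS subunits, which methylate H3K4 (14 of 20, 70%, among them ASH2L and DPY30), the immediate early and AP-1 genes (16 of 23, 69.6%, among them EGR1 and DUSP1), the TGF-beta and YAP targets (13 of 20, 65.0%), DNA replication and mitosis (26 of 45, 57.8%), the replication-dependent histones (37 of 69, 53.6%), Polycomb subunits (17 of 34, 50.0%) and mitochondrial ribosomal proteins (39 of 78, 50.0%). HOX genes (18 of 39, 46.2%), proteasome genes (18 of 39, 46.2%), developmental transcription factors (27 of 70, 38.6%) and ZNF genes (183 of 508, 36.02%) were closer to it. Wnt genes (16 of 51, 31.4%), cytosolic ribosomal proteins (27 of 81, 33.3%) and epithelial and mesenchymal markers (7 of 28, 25%) stood near it. Pluripotency genes (3 of 28, 10.7%, DNMT3B, KLF4 and SOX2) and germline genes (4 of 42, 9.52%) were below. None of 400 olfactory receptors and 20 immune cell markers had both tags, and 0 of either had a single tag.

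V5 without Flag was most frequent among cytosolic ribosomal proteins (35 of 81, 43.2%), Wnt genes (18 of 51, 35.3%), Polycomb subunits (12 of 34, 35.3%) and proteasome genes (13 of 39, 33.3%), beside the background of 21.4%. At BMI1, a PRC1 subunit gene, V5 reads per kb were 77.7 and 40.6, and Flag had 42.1 in replicate 1 and no domain in replicate 2. FOS, an AP-1 subunit gene, had 155 and 53.9 V5 and 77.4 Flag reads per kb in replicate 1, again without a Flag domain in replicate 2. Such promoters belong to the partly matched kind. Strict V5 members were rare: HOXD1 (30.9 and 23.3 V5 reads per kb), the variant PRC1 subunit gene PCGF5 (45.5 and 30.0), RPL6, CLDN3 (27.5 and 21.7), the keratin gene KRT18 (22.6 and 22) and 14 ZNF genes. Flag without V5, at 1.91% of all promoters, took in 14 of 508 ZNF genes (2.76%), 3 of 78 mitochondrial ribosomal proteins (3.85%), 4 of 39 proteasome genes (PSMA6, PSMC4, PSMD1 and PSMD7), 5 of 81 cytosolic ribosomal proteins, 3 of 45 replication genes (CDK2, CDK4 and POLA1), the homeobox gene DLX1 and the synaptonemal complex gene SYCE1. Each of those named with values here had V5 in replicate 1: at CDK4, Flag reads per kb were 57.5 and 23.3 and V5 had 83.3 in replicate 1, and at DLX1, Flag had 53.1 and 36.7 and V5 100.4 in replicate 1. No list held a strict Flag promoter.

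DPPA2 and DPPA4 themselves were not bound at their promoters by either tag. The DPPA2 gene (ENSG00000163530, chr3:109293788-109316517, minus strand) and the DPPA4 gene (ENSG00000121570, chr3:109326144-109337546, minus strand) carried 1 domain each in Flag replicate 1, of 6 reads in both genes, and 1 each in V5 replicate 1, of 7 reads in both. The second replicates had none. Over all 12 H1299 libraries there were 6 domains in DPPA2 and 6 in DPPA4, none over 14 reads, and all 12 touched an exon of the canonical transcript, although exons make up 6.08% of DPPA2 and 24.4% of DPPA4. The induced transgenes carry the coding sequence of the same genes. The part of reads from these transgenes was not tested.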

How the data were processed

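CUT&RUN libraries of doxycycline-induced H1299 cells were compared as region lists. According to the submitters' processing notes and the study's methods, reads were trimmed with Trim Galore 0.6.6, aligned to hg38 with BWA 0.7.13, and handled with SAMtools 1.9, Picard 2.6.0 and deepTools 3.5.0, and regions were called per library against IgG with EPIC2 in 100 bp bins and with MACS2. Each EPIC2 domain carries the counts of antibody and IgG reads, a p-value, an FDR, a score and a log2 fold, all as deposited by the authors. The deposited MACS2 peaks give a fold enrichment, a −log10 p-value and q-value and a score, and served as an alternative only. The ENCODE blacklist was not applied here. Both replicates of a tag share a single IgG library.

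Domains with FDR below 0.05 and log2 fold above 1 were joined between replicates and between tags at an overlap of 25% of the shorter region. Promoters reached 1500 bp to either side of the start of the canonical transcript of 19970 protein-coding genes (GENCODE release 44). Depth is given as reads in domains; whole-library totals were not given in the sources used here. Libraries were compared with two-sided exact permutation tests, shares with exact Clopper-Pearson intervals. The test over the other antibodies took each library as a unit, although replicates of an antibody may not be independent. Named sites were the first 10 promoters (5 sites elsewhere) of each class by their worst rank in reads per kb over the libraries that define it, the 5 shared promoters leaning most to each tag, DPPA2 and DPPA4, and the first 4 members, by alphabet, of each class in each gene list; strict members of a list were all named or counted. Computation used Python 3.11.15, pandas 2.3.3, NumPy 2.4.6, SciPy 1.17.1, pysam 0.24.0 and matplotlib 3.10.9, and the overlap and test code was tested on simulated data. Alternatives were a log2 fold above 2, other overlaps and promoter widths, MACS2 peaks, equal list lengths, a replicate block and leaving out each library. The sites and gene lists were chosen with earlier results of these data known.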

Additional observations from a re-analysis of the deposited data

Results flagged for a closer look

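Flag monoclonal replicate 2 stood apart from the other 3 DPPA2-directed H1299 libraries. It held a domain at 13.1% of the shared sites on the Flag list and at 14.3% of those on the V5 list, a gap to the nearest library beyond Dixon's 95% limit for 4 values. The library had 4904 domains. Chance puts about 1 in 20 groups beyond this limit, and both values come from the same library.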

How the results depend on the processing

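Of 88 recomputed values, 60 kept their direction, their side of the threshold and, for counts and shares, a value near the reported one. With a log2 fold above 2, 69.2% of Flag and 35.3% of V5 sites were shared, Flag-only sites numbered 1699 with 63.6% at promoters, and the difference between DPPA2-directed and DPPA4-directed libraries was -25.5 points (exact permutation p = 0.0286). With MACS2 peaks the shared shares were 67.6% and 32.3%, and V5-only sites numbered 2459. Tag-only MACS2 sites were at promoters in 70.8% (Flag) and 79.0% (V5), beside 76.9% of shared sites on the Flag list. The promoter percentage of Flag minus V5 libraries turned to -0.636 with these peaks. With lists of equal length 60.4% of V5 sites were shared, tag-only sites numbered 1344 and 3760, and 62.6% and 67.8% of them were at promoters. From single replicates, the shared share was 67.8% to 87.1% for Flag and 34.3% to 46.2% for V5, Flag-only domains numbered 3374 to 4447 and V5-only domains 15112 to 22895, and promoters made up 54.1% to 70.4% of shared, 8.27% to 18.0% of Flag-only and 15.4% to 37.6% of V5-only domains. Over the alternatives that leave out a replicate or library, the antibody difference ranged from -0.0550 (classes from replicate 2 alone) to -13.7 (without DPPA4n replicate 1, exact permutation p = 0.0286). Flag minus V5 in single replicates was -0.74 to -0.70 for log2 number of domains, 4.24 to 14.5 points for promoters, -300.0 to 0 bp for length and -5.00 to 2.62 for reads per kb, the last changing sign. The causes were not tested.

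With the replicate block the antibody difference stayed at -10.6 points (exact permutation p = 0.167), and no call changed. The replicate numbers were not taken to pair the samples, since only 2 pairs exist and the labels name no shared batch; across sites the replicate 1 to 2 ratios of the tags correlated with r = 0.48. Strict sites rest on few reads, which limits what their absence in the other tag shows.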
